A study of Pimephales promelas with 20 samples.

Results

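Of 528 forward-strand miRNA entries counted in fathead minnow larvae, 109 were abundant, steady from library to library and listed for 1 strand only. An entry belonged here if it was in the forward table and not in the reverse table, had a mean of at least 200 RPM over the 20 libraries, and had a standard deviation (SD) over those libraries of log2(RPM + 0.5) of at most 0.8. RPM are an entry's reads per 1000000 forward miRNA reads of its library. Of 476 single-strand forward entries, 111 reached the mean level, and 2 of these were above the SD limit. Both the level and the SD were used to choose the members, so the values of either are given below as a description, with no test.

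MicroRNAs are short RNAs that guide Argonaute proteins to messenger RNAs, whose translation and stability they reduce. They are cut from hairpin precursors, and in fish as in other vertebrates many are known to mark tissues such as muscle, liver or brain. A whole larva therefore gives a mixture of the miRNAs of all its tissues, in which fewer cells of a type and less RNA per cell cannot be told apart. Every member carries a numbered identifier, and 0 of 109 were found among the symbols of the RefSeq gene table. That lookup compared identifiers, not sequences, so it does not tell whether a member is a known miRNA. The labels' design text names known miRNA sequences of the fathead minnow as the mapping reference. No identifier was matched to a known name here. No role, family or tissue is given for any of the members. Their sequences were not used here.

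Larvae of Pimephales promelas, a small freshwater fish used in toxicity tests, were exposed from 48 h to 96 h after hatching to 10 ng/L ethinyl estradiol (EE2), a synthetic estrogen, or kept at 0 ng/L. There were 10 control and 10 EE2 libraries of small RNA, made from whole larvae at 96 h. How many larvae went into a library, and whether vessels were separate, is not in the labels. The p-values here set the difference between the groups against the spread between these libraries alone, and that spread may be technical. Forward miRNA reads came to 8.72 to 24.1 M per library. Some libraries lay farther from the common profile than others. In control 8, the shallowest library, 60 of the 109 members were within 0.3 log2 units of their own median over all libraries, and in control 1 62 were, against 100 in EE2 replicate 6. Control 1 held the highest value of 19 members and control 8 the lowest value of 18, while EE2 replicate 6 held neither extreme of any member.

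The members made up nearly all forward miRNA reads in both groups. Their summed share was 97.0% ± 1.08 (SD, n = 10) in controls and 96.3% ± 1.34 (SD, n = 10) in EE2 libraries, and ran from 93.8% in EE2 replicate 7 to 98.1% in control 8. The ranges of the groups overlapped almost completely. A single entry above the SD limit, novelMiR_5467, took 0.792% to 4.97% of all forward reads, 2.16% on average. The share is a sum over chosen entries and was not tested.

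Members spanned almost 3 orders of magnitude. At 10000 RPM or more there were 20 members with 82.0% of reads, from 1000 to under 10000 there were 45 with 12.6%, and from 200 to under 1000 there were 44 with 1.97%. Read numbers were high for all of them: the smallest count of any member in any library was 1138 reads. The SD that counting error alone would give was 0.0105 log2 units for the median member and 0.0275 at most, against a median observed SD of 0.23. The spread described below is therefore larger than counting error, which is the only error this figure covers, as reads without molecular identifiers are not independent molecules.

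**Figure D1:**
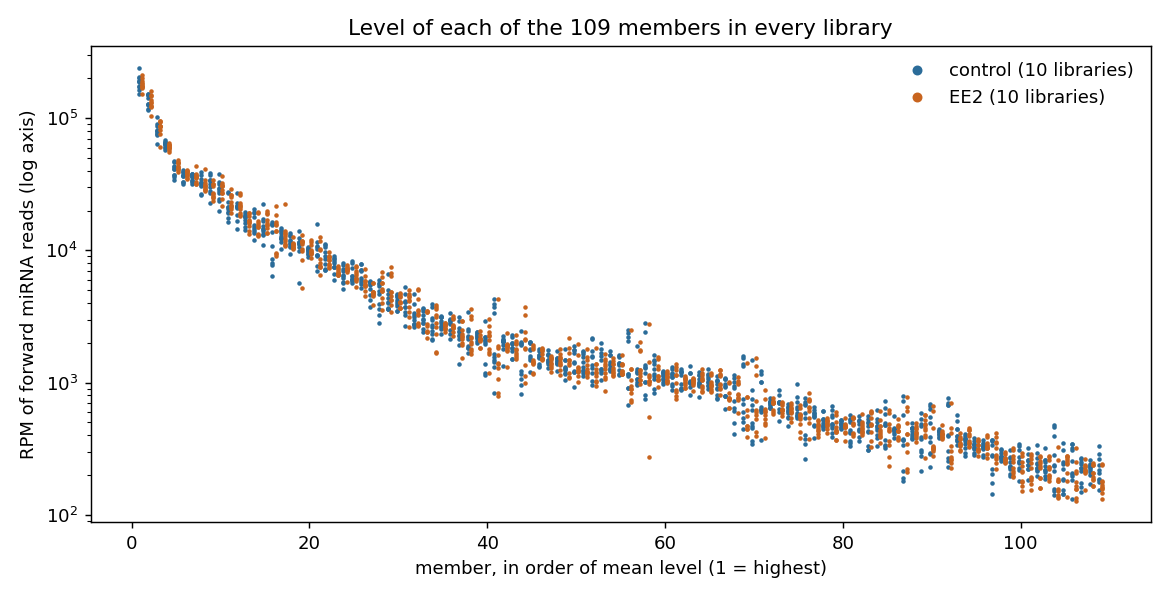
RPM of forward miRNA reads (log axis) of each of the 109 members in 10 control and 10 EE2 libraries; each point is 1 library and members stand in order of mean level. The 20 members at 10000 RPM or more lie at the left, and control and EE2 points overlap for every member.

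The 2 most abundant members kept ranks 1 and 2 in each of the 20 libraries. novelMiR_21068 had 152390 to 241532 RPM in controls, with a median of 188995, and 152552 to 212612 after EE2, with a median of 178587. novelMiR_45908 had 116114 to 152663 in controls, with a median of 135664, and 103470 to 160317 after EE2, with a median of 131487. The 2 groups overlapped for both, and the highest library was 1.58 times the lowest for the first and 1.55 times for the second. The next 2 members shared ranks 3 and 4. novelMiR_27736 ranged from 64200 to 102938 RPM in controls (median 79999) and from 60462 to 95392 after EE2 (median 86643). novelMiR_25637 ranged from 57377 to 68429 in controls (median 63810) and from 55798 to 64969 after EE2 (median 60408). The lowest library for both of these, and for novelMiR_45908, was EE2 replicate 7.

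The other 6 of the 10 most abundant members exchanged places between libraries, ranks being counted among the 109 members. novelMiR_13707 had 33796 to 47303 RPM in controls (median 41256) and 39484 to 48006 after EE2 (median 43136), and its rank stayed between 5 and 7. novelMiR_34702, with medians of 36717 in controls and 37864 after EE2, stayed between ranks 6 and 8. novelMiR_16067 had medians of 36096 and 35914, and ranks 5 to 9. These 3 were nearer to a fixed place than the 3 that follow. novelMiR_16671 (medians 32223 and 30616) ranged over ranks 5 to 11, novelMiR_35079 (medians 32564 and 26886) over ranks 5 to 11, and novelMiR_28416 (medians 28458 and 29651) over ranks 5 to 13. novelMiR_35079 was at 22639 to 38355 RPM in controls and 23767 to 34012 after EE2, and only 1 of 10 EE2 libraries exceeded the control median on this scale.

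High level and low spread went together only in part. The median SD was 0.18 log2 units for the 20 most abundant members, 0.22 for the middle class and 0.25 for the lowest class. Over all 528 entries, whose low counts add counting error, it was 0.40. The 4 entries with reads on both strands that reached the same mean level had a median SD of 0.23, as had all 109 members. An SD under 0.2 was found for 44 members, 0.2 to under 0.4 for 46 and 0.4 or more for 19. The highest library was under 2 times the lowest for 69 of 109 members and more than 4 times for 6.

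**Figure D2:**
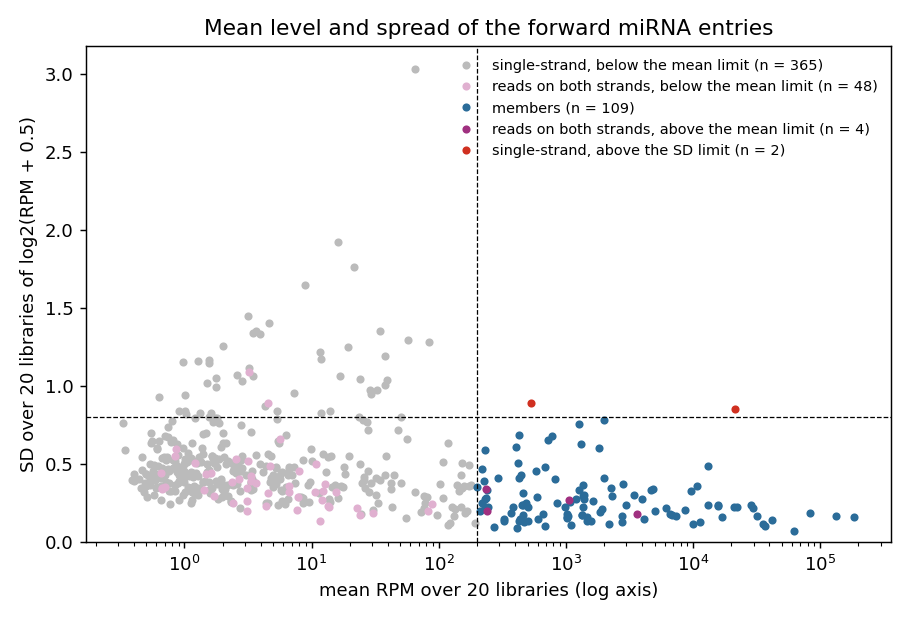
Mean RPM over 20 libraries (log axis) against the SD over 20 libraries of log2(RPM + 0.5) for all 528 forward entries; dashed lines mark the limits of 200 and 0.8. The 109 members fill the lower right, 2 single-strand entries lie above the SD limit, and 4 entries with reads on both strands reach the same mean level.

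The steadiest members came from both ends of the abundance range. novelMiR_25637, at a mean of 61985 RPM, had the lowest SD, 0.075, and its highest library was 1.23 times its lowest. novelMiR_21991, at a mean of only 411, followed with an SD of 0.089, with 380 to 448 RPM in controls (median 423) and 373 to 474 after EE2 (median 402). novelMiR_1457 had an SD of 0.098, with 255 to 312 in controls (median 275) and 246 to 298 after EE2 (median 262). So 2 of the 3 steadiest members were of the lowest abundance class, with counting errors far below their spread. novelMiR_34702 (SD 0.10) and novelMiR_28521 (SD 0.11, 580 to 770 RPM over all libraries) complete the 5 lowest SDs.

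At the limits of the rule, novelMiR_24832 at 200.4, novelMiR_37664 at 213.0 and novelMiR_3490 at 218 RPM were just inside the mean, and novelMiR_705 at 194, novelMiR_630 at 180 and novelMiR_15423 at 173 were just outside. Just inside the SD limit were novelMiR_24836 at 0.78, novelMiR_17433 at 0.76 and novelMiR_13706 at 0.69. Just outside were novelMiR_5467 at 0.85 and novelMiR_46489 at 0.89, the only 2 single-strand entries that reached the mean and missed the SD. Membership depended little on which group it was read from: of 108 entries that met the rule in the 10 controls alone, 104 also met it in the 10 EE2 libraries, where 107 of all 476 single-strand entries did.

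For several of the least steady members a few libraries stood well above the rest, and these were often the same libraries. This was not so for all 5 members with the highest SD. novelMiR_13706 was spread over 179 to 790 RPM, and its widest step between libraries in order of level, taken as a ratio, was from 222 to 297. novelMiR_17433 was high in controls 2 and 7 and EE2 replicate 5, at 2429 to 2845 RPM, and at 271 in EE2 replicate 7 to 1432 in EE2 replicate 6 over the other 17. Neither has either of the patterns described next. novelMiR_24836 had 832 to 4292 RPM in controls (median 1605) and 790 to 4255 after EE2 (median 1393). Controls 1, 2, 7 and 10 and EE2 replicate 5 were at 3378 to 4292, and the other 15 libraries at 790 to 1893. Neither group was all high or all low, as 4 controls and 1 EE2 library were in the upper range. The same 5 libraries were the 5 highest for novelMiR_5939, at 1334 to 1584 RPM against 387 to 781 in the other 15. They were at 2052 to 2513 against 676 to 1269 for novelMiR_19083, and at 679.6 to 763 against 228 to 450.0 for novelMiR_32754.

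This pattern and the second one below were looked for only among the 111 single-strand entries that reached the mean level. The other forward entries were not searched, so a share over all 528 is not given. Among the entries searched, 8 members had exactly these 5 libraries on top: the 4 above, novelMiR_37665, novelMiR_1190, novelMiR_34701 and novelMiR_24832. The gap between the lowest of the 5 and the highest of the other 15 was a factor of 1.003 to 1.78. With TMM scaling (trimmed mean of M values, which sets a factor per library from the bulk of entries) it was 6 members. The entry above the SD limit with this pattern, novelMiR_46489, had the widest gap of the entries searched, 999 to 1243 RPM against 211 to 499, a factor of 2.002. The forward totals of these 5 libraries ran from 13.5 to 20.7 M, inside the range of the others, and the labels give no batch. Whether a technical difference had a part in this was not tested. These libraries were picked out by their values, so no test is given.

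A second pattern put control 6 and EE2 replicates 3, 7 and 9 on top. novelMiR_24696 was at 1134 to 1542 RPM in these 4 libraries and at 344 to 872 in the other 16. novelMiR_1160 was at 1747 to 2034 against 963 to 1275, and novelMiR_15218 at 6363 to 7499 against 3417 to 5004. Here 1 control and 3 EE2 libraries were in the upper range. The pattern held for 9 members, and for 10 with TMM scaling, among them novelMiR_706, whose SD of 0.11 is one of the lowest: it had 10641 to 12012 RPM against 8821 to 10356. For the 9 members in RPM, the gap between the lowest of the 4 libraries and the highest of the other 16 was a factor of 1.002 to 1.37, so some were barely set apart. Of the entries searched, novelMiR_5467, above the SD limit, had the widest gap with this pattern, 39644 to 49685 against 7922 to 25925 RPM. The 4 libraries had 9.999 to 15.9 M forward reads. They include EE2 replicate 7 and control 6, which are among the 3 shallowest. Control 8, the shallowest of all, was the lowest library of novelMiR_5467, at 7922 RPM. The part of depth in the pattern was not tested. On the scale of shares, novelMiR_35079 and novelMiR_45343 were lowest in these same 4 libraries, at 22639 to 25293 and 5184 to 9910 RPM. With TMM scaling neither was.

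Within groups, most pairs of members were weakly correlated, while a few moved almost as one. Over 5886 pairs, the median Pearson correlation of log2 RPM over the 20 libraries, with group means removed, was 0.053, with quartiles of -0.21 and 0.33. All pairs share the same libraries and the same total, so a rise in 1 abundant member lowers the shares of the rest, and no p is given. novelMiR_5939 and novelMiR_32754 had the highest correlation, 0.988 (0.988 in controls and 0.989 after EE2). It was followed by novelMiR_24836 with novelMiR_5939 at 0.964, novelMiR_15218 with novelMiR_18661 at 0.964, novelMiR_7495 with novelMiR_9702 at 0.960, and novelMiR_18661 with novelMiR_1160 at 0.955. With any 1 library left out, these 5 stayed between 0.944 and 0.991. With TMM scaling they were 0.986, 0.960, 0.971, 0.964 and 0.961.

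**Figure D3:**
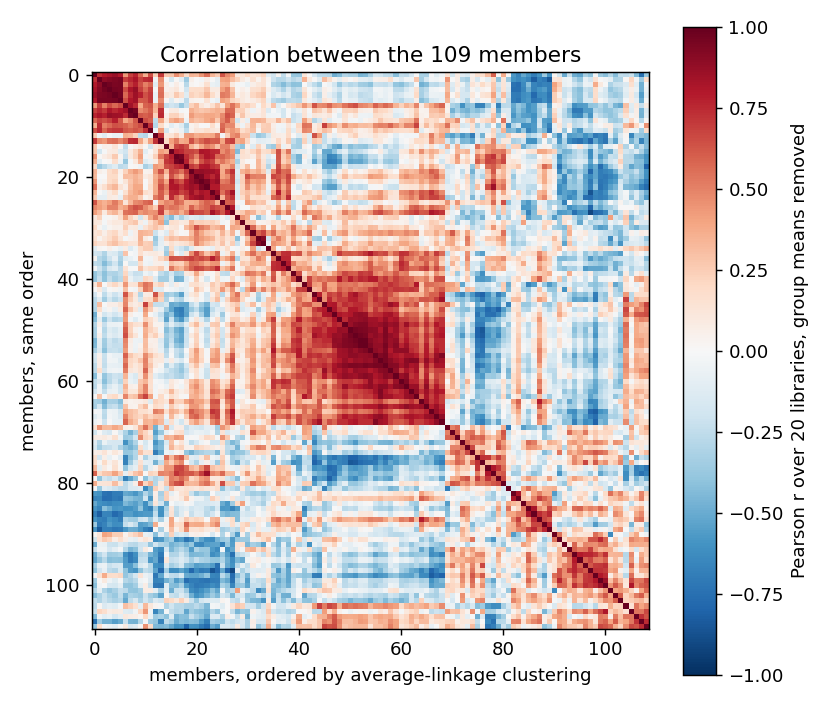
Pearson correlation over 20 libraries, with group means removed, of log2(RPM + 0.5) for every pair of the 109 members, in the order of an average-linkage clustering. A large red square in the middle and smaller ones along the diagonal are members that vary together; the median over all pairs was 0.053.

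Linking every pair above 0.9, a limit set after seeing the values, joined 30 of the 109 members into 6 sets. The first held 16 members with 2.80% of reads, among them all 8 of the first pattern, and its pairwise correlations went from 0.60 to 0.99. The second held 5, novelMiR_15218, novelMiR_18661, novelMiR_25564, novelMiR_1160 and novelMiR_24696, all of the second pattern, with correlations from 0.895 to 0.964. The third was novelMiR_18659, novelMiR_1161 and novelMiR_27737. The other 3 were pairs: novelMiR_16671 with novelMiR_2235, novelMiR_45288 with novelMiR_27964, and novelMiR_7495 with novelMiR_9702. With TMM scaling there were also 6 sets, of 23 members, and sets 2 to 6 each stayed joined while the first did not stay whole.

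The sets differed only in part in which libraries were high and low. The second set and the pair novelMiR_16671 and novelMiR_2235 were both highest in EE2 replicate 7. The first was lowest in control 8 and highest in control 7. The third was lowest in control 1, by 0.81 log2 units below its mean, and highest in EE2 replicate 8, by 0.54 above it. The pair novelMiR_45288 and novelMiR_27964 ran from 0.99 below the mean in control 8 to 0.98 above it in EE2 replicate 3. novelMiR_45288 is the only one of the 20 most abundant members with an SD above 0.4, at 0.49, and its level went from 6451 to 21568 RPM. The pair novelMiR_7495 and novelMiR_9702 was 1.01 below its mean in control 2. Sets 2 and 5 (the pair novelMiR_45288 and novelMiR_27964) followed similar courses, with a correlation of 0.831 between their mean profiles, and novelMiR_5467 followed both, at 0.940 and 0.942. The first set was not close to either, at -0.15 and 0.10. Between set 3 and set 6 (the pair novelMiR_7495 and novelMiR_9702) the correlation was 0.654.

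**Figure D4:**
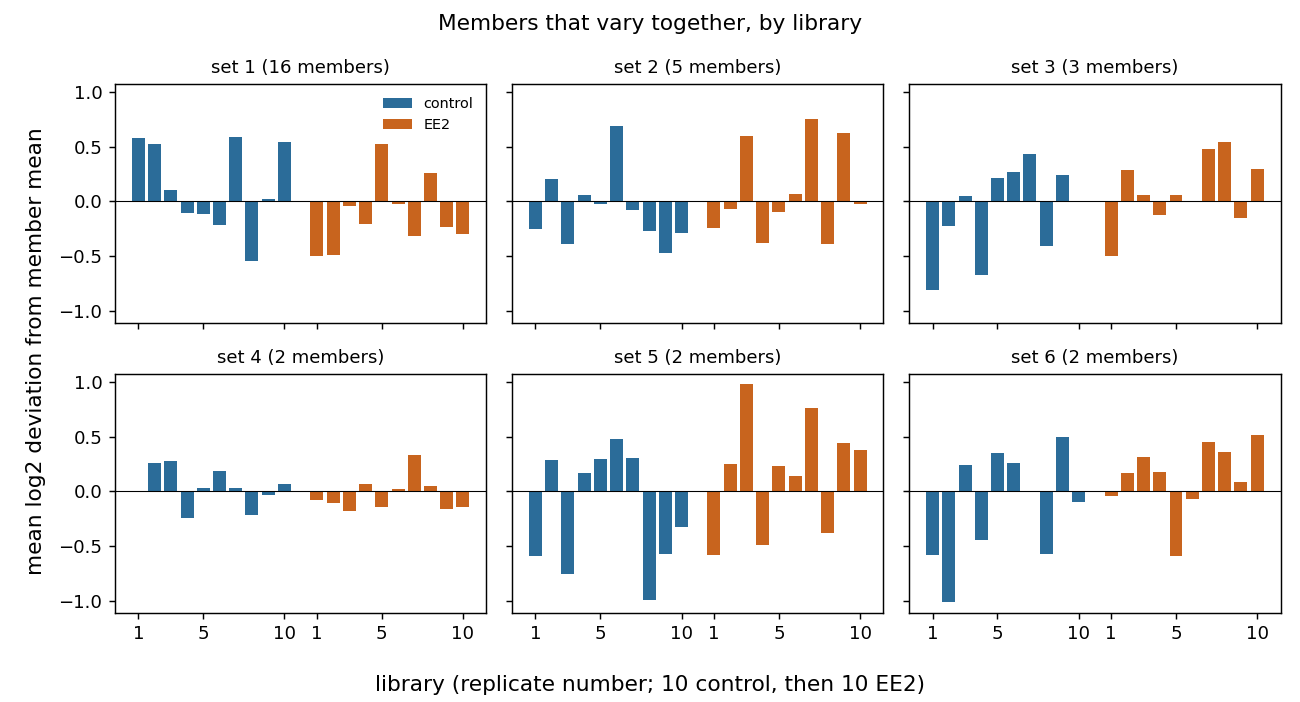
Mean deviation, in log2 units, of each set of members from the members' own means (vertical axis) in 10 control and 10 EE2 libraries (horizontal axis, replicate numbers); each bar is 1 library. Set 1 is high in controls 1, 2, 7 and 10 and EE2 replicate 5, and set 2 in control 6 and EE2 replicates 3, 7 and 9.

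Opposite courses were rarer, with 11 pairs under -0.8. The most opposed pair was novelMiR_21068 with novelMiR_5228, at -0.91. novelMiR_5228 went from 1382 RPM in control 8 to 3154 in control 7, the libraries in which novelMiR_21068 was at its highest and its lowest. The correlation was -0.87 without control 8 and -0.83 with TMM scaling. novelMiR_21068 was also opposed to novelMiR_38037, at -0.86, which was -0.80 without control 8 and -0.75 with TMM scaling, short of the limit of -0.8. novelMiR_19083 was opposed to novelMiR_3490, at -0.85, which was -0.80 without EE2 replicate 5 and -0.94 with TMM scaling. novelMiR_3490 was at 154 RPM in EE2 replicate 5 and at 207 or more in the other EE2 libraries.

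There were 25 pairs of members whose numbers were at most 3 apart, with a median correlation of -0.070, near that of all pairs. Of the 25, 1 was above 0.9, novelMiR_37665 with novelMiR_37664 at 0.921, against 44 of all 5886 pairs. The next highest were novelMiR_5226 with novelMiR_5228 at 0.76, novelMiR_28417 with novelMiR_28419 at 0.74 and novelMiR_39020 with novelMiR_39019 at 0.69, and the lowest was novelMiR_38035 with novelMiR_38037 at -0.62. novelMiR_27736 and novelMiR_27737 differed 284-fold in mean level and correlated at 0.81 in controls and at -0.25 after EE2, a difference that was not tested. EE2 replicate 7 was the lowest EE2 library of novelMiR_27736, at 60462 RPM, and the highest of novelMiR_27737, at 417. The value after EE2 therefore leans on that library, and the correlation without it is not given here. Whether neighbouring numbers stand for neighbouring sequences is not stated in the sources used here.

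No member passed the test of EE2 against control. All 109 passed the filter on low counts, and 0 of 109 passed edgeR's quasi-likelihood test at a Benjamini-Hochberg adjusted p of 0.05, in a fit over all 478 entries tested, in which 0% were called. DESeq2 and limma voom also called 0. At an unadjusted p under 0.05 there were 10 members (9.17%), against 5.02% of all entries tested, and DESeq2 gave 6 and limma voom 9. The count went from 1 without control 1 to 20 without control 6, so single libraries decide it. It was 2 without control 10, 3 without EE2 replicate 2 or 7, 4 without control 2 or EE2 replicate 10, 5 without control 4, EE2 replicate 1 or EE2 replicate 3, 6 without EE2 replicate 6, and 19 without EE2 replicate 5. These fits also applied the filter again, and with the same 478 entries the count went from 2 without control 1 to 22 without EE2 replicate 5. The limit on the SD over all libraries bounds how far apart the groups of a member can lie. The count of calls among members is therefore not independent of the rule. That limit left out only 2 of the 111 single-strand entries that reached the mean level, and 0 of all 478 entries were called.

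The direction of the members as a whole depended on the scaling. With TMM, 77 of 109 had a log2 fold change above 0, against 52.5% of all entries tested, and of the 10 at an unadjusted p under 0.05, 8 members (7.34%, against 2.72% of all entries) were higher after EE2 and 2 (1.83%, against 2.3%) were lower. With library size alone, 40 of 109 were above 0, and 0 of the 9 members at an unadjusted p under 0.05 were higher. The median log2 fold change of the members was 0.053 with TMM and -0.047 with library size alone, and that of all entries tested was 0.012 and -0.087. Among the 20 most abundant members 19 were above 0 with TMM and 11 with library size alone. Each of the 20 TMM fits that left out 1 library and applied the filter again had fewer members above 0 than the fit of all libraries. In them 58 to 72 members were above 0, 14 to 19 of the 20 most abundant were, and the median of all entries tested was negative, at -0.034 to -0.0063. These fits tested 483 to 492 entries, and TMM took control 3 or 4 as its reference library in place of EE2 replicate 3. With the same 478 entries, 72 to 78 members were above 0 and the median of all entries was -0.0043 to 0.026. In these fits the reference was control 9 without control 8 or EE2 replicate 1, 3 or 9. It was EE2 replicate 3 otherwise. No direction is given for the set.

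**Figure D5:**
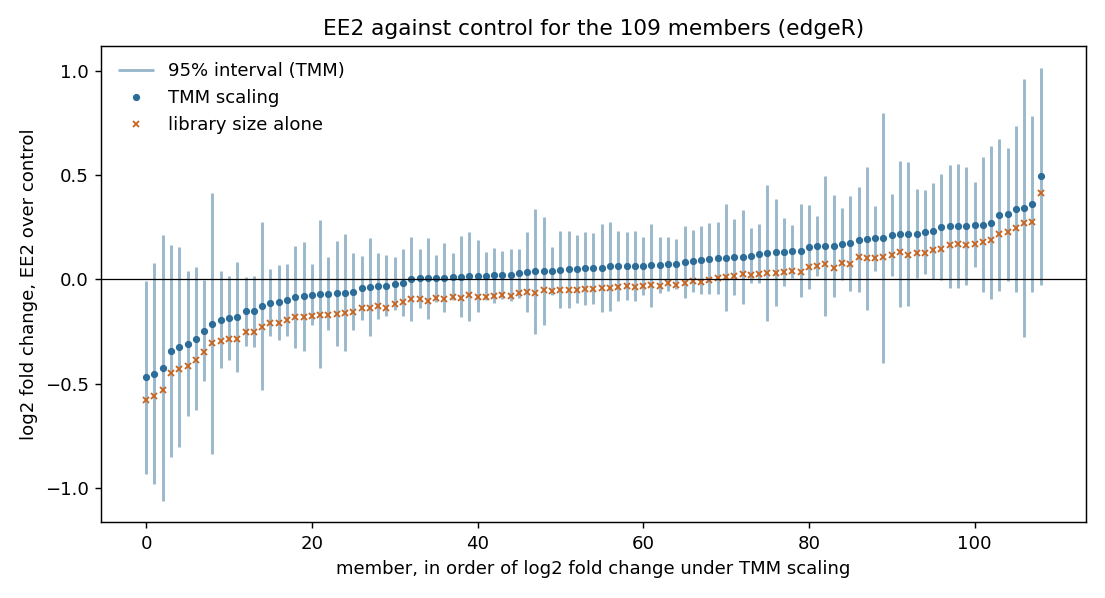
Log2 fold change of EE2 over control (vertical axis) for the 109 members in order of that value (horizontal axis), from edgeR with TMM factors (points, with 95% intervals) and with library size alone (crosses). Values run from -0.47 to 0.49 with TMM, the crosses lie lower by a similar amount throughout, and 0 members passed the adjusted threshold.

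The 5 members with the smallest p above 0 were novelMiR_31828, novelMiR_13707, novelMiR_1437, novelMiR_34702 and novelMiR_39194. novelMiR_31828 had 747 to 1122 RPM in controls (median 938) and 807 to 1249 after EE2 (median 1045), and 8 of 10 EE2 libraries were above the control median on the TMM scale. Its log2 fold change was 0.26 ± 0.10 (SE; edgeR quasi-likelihood, adjusted p = 0.721, range over all settings 0.354 to 0.962). novelMiR_39194 had 5060 to 8036 RPM in controls (median 6470) and 5730 to 7785 after EE2 (median 7188), with 9 of 10 EE2 libraries above the control median on both scales (log2 fold change 0.21 ± 0.09 SE, edgeR adjusted p = 0.721, range 0.414 to 0.962). The groups overlapped in both, and neither passed. novelMiR_34702 and novelMiR_1437 were at log2 fold changes of 0.16 ± 0.07 and 0.23 ± 0.10 (SE), novelMiR_13707 at 0.20 ± 0.08, each with an edgeR adjusted p of 0.721.

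On the other side the smallest p belonged to novelMiR_13066, novelMiR_24832, novelMiR_17755, novelMiR_6598 and novelMiR_43941. novelMiR_13066 had 141 to 477 RPM in controls (median 237) and 133 to 323 after EE2 (median 168), a log2 fold change of -0.47 ± 0.22 (SE; edgeR adjusted p = 0.721, range 0.474 to 0.962). It is also one of the members that missed the rule in the EE2 libraries alone, where its mean was below 200. novelMiR_6598 had 381 to 653 in controls (median 567) and 390.3 to 525 after EE2 (median 459), and 0 of 10 EE2 libraries were above the control median in RPM and 1 of 10 on the TMM scale (log2 fold change -0.15 ± 0.08 SE, edgeR adjusted p = 0.721). For novelMiR_24832, novelMiR_17755 and novelMiR_43941 the highest library was control 1 and the lowest EE2 replicate 2, and log2 fold changes were -0.25 ± 0.12, -0.18 ± 0.10 and -0.15 ± 0.08 (SE). None of the 5 passed, and no member had groups that did not overlap (0 of 109, against 0% of all 528 entries).

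What the data leave room for with TMM scaling can be read from the intervals of that fit. They do not cover the choice of scaling, and with library size alone the members' median log2 fold change had the opposite sign. The 95% interval of the edgeR fold change lay within 1.2-fold either way for 41 of 109 members, within 1.5-fold for 93 and within 2-fold for 107, against 11.7%, 49% and 82.2% of all entries tested. The narrow intervals follow in part from the rule, through its limit on the mean level as well as that on the SD. The median counting error was 0.0105 log2 units for members and 0.28 for single-strand entries below the mean limit. For the most abundant member, novelMiR_21068, the interval of the log2 fold change was -0.12 to 0.23, and for the steadiest, novelMiR_25637, -0.076 to 0.16. Members of the first pattern had some of the widest intervals. novelMiR_24836 was at -0.42 ± 0.31 (SE, edgeR adjusted p = 0.789) and novelMiR_5939 at -0.45 ± 0.25 (SE, edgeR adjusted p = 0.721), and without EE2 replicate 5, the only EE2 library in their upper range, they were at -0.71 and -0.66, with neither passing.

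The spread between libraries was also compared, as the rule limits it over all 20 libraries together and does not say which group holds it. That limit still bounds how wide either group of a member can be. The count of calls among members is therefore not independent of the rule. The test was limma on the absolute deviation of each library from its group's median, on the log2 scale, over all 478 entries. It called 0 of 109 members at an adjusted p of 0.05 and 0% of all entries, and 3 members at an unadjusted p under 0.05 (2.75%, against 3.77% of all entries), all 3 narrower after EE2 (against 2.72% of all entries). The deviation was smaller after EE2 for 71 of 109 members (65.1%), close to the 64.4% of all entries. The 3 were novelMiR_1204, with a mean deviation of 0.20 in controls and 0.087 after EE2, novelMiR_39194, at 0.16 and 0.070, and novelMiR_38035, at 0.15 and 0.063 (limma adjusted p = 0.894 for each). In novelMiR_38035 the controls ran from 5931 to 9043 RPM (median 7783) and the EE2 libraries from 6524 to 7589 (median 6758), inside the range of the controls.

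Members with the smallest p for a wider spread after EE2 were novelMiR_34761, novelMiR_706 and novelMiR_42437, with 0 at an unadjusted p under 0.05. novelMiR_34761 had a mean deviation of 0.14 in controls and 0.27 after EE2, with 875 to 1305 RPM in controls (median 1125) and 746 to 1394 after EE2 (median 1066). novelMiR_706 was at 0.059 and 0.11, and novelMiR_42437 at 0.16 and 0.27 (limma adjusted p = 0.894 for each of the 3). The number of members at an unadjusted p under 0.05 was 0 without control 7 or EE2 replicate 8, 1 without control 8, control 9 or EE2 replicate 10, and 7 without EE2 replicate 5. It was also 0 with TMM scaling and 5 with deviations from the group mean.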

How the data were processed

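Small RNA was measured in 20 libraries of whole larvae. The deposited miRNA tables hold raw read counts per miRNA sequence, as whole numbers with unequal totals, not normalized. Per the labels' design text, known miRNA sequences of the fathead minnow were the mapping reference. Of tools, the submitters' processing notes name Bowtie 1.2.3 and bcl2fastq 2.19.1, besides edgeR 3.26.8 and limma 3.40.6. Mismatch settings, the reference version and the handling of reads with several matches are not given in the sources used, so near-identical miRNAs may share or split reads. F and R in the tables were taken as strands, which no label states. The piRNA tables were not used here.

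Counts were scaled to reads per 1000000 of the forward total (RPM) for levels, with a pseudocount of 0.5 on the log2 scale. EE2 was compared with control by edgeR 4.0.16 in R 4.3.3 (filterByExpr, TMM, robust quasi-likelihood F test, Benjamini-Hochberg over 478 entries, threshold 0.05), with standard errors taken from the F statistic. Spread was compared by limma 3.58.1 (robust, with trend). Both fits were also run on simulated counts, and the outcome is not given here. Those counts were drawn independently for each entry, so they do not cover entries that vary together. DESeq2 1.42.0, limma voom, other scalings, no filter, a replicate block and leaving out each library were alternatives. Named members were the extremes of level, SD, p and pair correlation, those at the limits, and others said to be chosen after seeing values: the members of the 2 library patterns, of the 6 sets and of the pairs with neighbouring numbers, and novelMiR_45343. The members and lists were chosen with earlier results of these data known.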

Additional observations from a re-analysis of the deposited data

Results flagged for a closer look

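Among 90 groups of 10 libraries examined (42 named members and 3 library measures, in 2 groups each), 8 had a highest or lowest library whose gap to its neighbour passed Dixon's 95% value. Chance flags about 1 in 20 groups, and the named members were chosen by their values, so the numbers are not comparable. All values are log2(RPM + 0.5). EE2 replicate 5 was set apart in 5 of the 8. It was the highest EE2 library for novelMiR_24836, at 12.06 against 10.89 in the next, and for novelMiR_19083, at 11.28 against 10.31. It was the lowest for novelMiR_39194, at 12.48 against 12.74, for novelMiR_9702, at 8.07 against 8.59, and for novelMiR_3490, at 7.27 against 7.698. EE2 replicate 7 was the lowest EE2 library for novelMiR_27736, at 15.88 against 16.21, and the highest for novelMiR_16671, at 15.34 against 15.06. Control 6 was the highest control for novelMiR_1160, at 10.89 against 10.32. The part of sampling or preparation in these values was not tested.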

How the results depend on the processing

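No alternative gave a call among the members, for level or for spread. With library size alone the members' median log2 fold change reversed to -0.047, 40 of 109 were above 0 and 0 were higher at an unadjusted p under 0.05; novelMiR_21068, novelMiR_45908, novelMiR_25637 and novelMiR_16671 reversed to -0.048, -0.037, -0.058 and -0.034. Members at an unadjusted p under 0.05 numbered 6 with DESeq2 and, of these, 4 were higher after EE2; without the filter 5 were higher. The labels do not say that replicate numbers pair libraries. Over the forward entries with 200 or more reads in total, same-numbered libraries correlated at -0.46 to 0.27. On these entries 0 of 10 controls and 1 of 10 EE2 libraries correlated best with their own number. Over the members alone, same-numbered libraries correlated at -0.55 to 0.071. Such correlations could miss a weak pairing. With the replicate block 3 members were at an unadjusted p under 0.05, all 3 higher, and 14 of all entries.

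With 1 library left out, all entries at an unadjusted p under 0.05 numbered 14 to 51, members 1 to 20, members higher 1 to 13 and members above 0 58 to 72. The members' median was 0.012 to 0.053 and that of all entries -0.034 to -0.0063. These fits applied the filter again. With the entries tested held at 478, an alternative chosen after seeing the data, these 6 values were 14 to 55, 2 to 22, 2 to 19, 72 to 78, 0.042 to 0.071 and -0.0043 to 0.026, again with 0 calls. With the filter applied again, the 4 that reversed ran from -0.026 to 0.089 (novelMiR_21068), -0.0068 to 0.069 (novelMiR_45908), -0.013 to 0.037 (novelMiR_25637) and -0.014 to 0.068 (novelMiR_16671), so novelMiR_25637 was below its value with all libraries in each of the 20; with the entries held they ran from 0.017 to 0.12, 0.029 to 0.105, 0.022 to 0.063 and 0.021 to 0.095. For spread, 10 to 26 entries and 0 to 7 members were at an unadjusted p under 0.05, with 0 to 1 members wider after EE2 and 34 to 51 above 0, and the median difference was -0.026 to -0.0036. With deviations from the group mean 34 entries and 5 members were at an unadjusted p under 0.05, and with TMM 0 members. Membership was 107 to 109 with 1 library left out and 131, 78, 101 and 111 with limits of 100, 500, 0.6 and 1. The causes were not tested.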
